A study of Homo sapiens with 4 samples.

Results

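The genes followed here are 8 enzyme genes of heme synthesis and the mitochondrial iron importer SLC25A37, 9 members chosen by symbol among the 58229 genes of an RNA-seq table, in which each symbol had a single row. Heme is made partly in mitochondria and partly in the cytosol, from glycine and succinyl-CoA. The first reaction is carried out by 5-aminolevulinate synthase, for which the genome holds a pair of isozyme genes: ALAS1, used in most cells, and ALAS2, used in the erythroid lineage, where heme is needed for hemoglobin. ALAD, UROS, UROD, CPOX and PPOX are among the enzymes that carry the precursor to protoporphyrin, FECH (ferrochelatase) inserts iron, and SLC25A37 (mitoferrin 1) brings that iron across the inner mitochondrial membrane of erythroid cells.

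The RNA came from CD31+ cells grown out of H1, a widely used line of human embryonic stem cells. Cells were collected at day 8 of hematopoietic differentiation, in which all cells received activin A and BMP4 and then VEGF and bFGF. The groups were cells without HAND1 overexpression (Control, 2 libraries) and cells in which the basic helix-loop-helix factor HAND1 was overexpressed (HAND1_OE, 2 libraries). The study's scheme marks a late interval with or without DOX, the usual short form of doxycycline, and the sources used here name no clone and do not say whether Control cells carried the HAND1 construct. CD31 (PECAM1) is carried by endothelial cells and by many early blood cells, so each library can hold both. Values were taken to be FPKM, the fragments of a gene divided by its transcript length and by the library's depth, although their header gives no unit. If so, levels of different genes can be set side by side on this per-length scale. The study's general statement on statistics speaks of independent experiments, but no source used here says it of these 2 libraries per group or names separate cultures, so p-values measure the spread between these libraries, which may be technical.

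The libraries were first checked against their labels. FPKM summed to between 536284 and 606609 per library, and 13989 to 14542 genes reached 1 FPKM. HAND1 was at 12.1 and 14.3 FPKM in Control, against 520 and 517 FPKM in HAND1_OE. PECAM1 was at 95.5 and 141 FPKM in Control and 92.0 and 160 FPKM in HAND1_OE. Of 12 endothelial markers, 1 was called higher and 1 lower, beside 4.16% of all genes tested called in either direction. The summed level of the 12 was 1716 and 1544 FPKM in Control and 1525 and 1664 FPKM in HAND1_OE. That sum hides opposite differences of single markers. VWF was at 31.3 and 14.6 FPKM in Control, against 107 and 95.4 FPKM in HAND1_OE. CLDN5 was at 85.0 and 66.1 FPKM in Control, against 15.2 and 14.3 FPKM in HAND1_OE. "Called" means here a limma adjusted p under 0.05 over the 14622 genes that reached 1 FPKM in 2 or more libraries.

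Upstream sequences are shown for ALAS1 and ALAS2 because they are the isozyme pair, and for CPOX and FECH because they followed ALAS2 in the size of the difference among the members with a sequence here. Each is the 250 bases before the RefSeq start on GRCh38.p14, read 5′ to 3′ on the gene's strand. They lie at chr3:52197833-52198082 (plus strand) for ALAS1, chrX:55030978-55031227 (minus) for ALAS2, chr3:98593612-98593861 (minus) for CPOX and chr18:57586703-57586952 (minus) for FECH. Capitals mark matches to the GATA motif (GATA with A or T before it and A or G after it, on either strand), the letters bound by GATA factors such as the erythroid factor GATA1.
ALAS1: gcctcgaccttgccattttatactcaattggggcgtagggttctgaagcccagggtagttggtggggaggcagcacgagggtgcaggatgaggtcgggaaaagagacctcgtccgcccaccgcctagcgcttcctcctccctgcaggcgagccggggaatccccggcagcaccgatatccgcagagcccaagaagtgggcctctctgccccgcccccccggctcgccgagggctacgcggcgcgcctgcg
ALAS2: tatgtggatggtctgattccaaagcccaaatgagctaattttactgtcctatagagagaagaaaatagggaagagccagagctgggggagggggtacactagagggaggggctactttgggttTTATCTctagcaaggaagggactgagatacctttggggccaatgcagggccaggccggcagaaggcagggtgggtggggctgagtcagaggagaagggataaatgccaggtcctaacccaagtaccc
CPOX: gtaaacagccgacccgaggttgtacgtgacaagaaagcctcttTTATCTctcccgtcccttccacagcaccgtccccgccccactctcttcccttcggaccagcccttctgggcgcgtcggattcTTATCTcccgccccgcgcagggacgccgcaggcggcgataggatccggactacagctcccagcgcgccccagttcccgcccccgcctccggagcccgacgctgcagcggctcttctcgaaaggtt
FECH: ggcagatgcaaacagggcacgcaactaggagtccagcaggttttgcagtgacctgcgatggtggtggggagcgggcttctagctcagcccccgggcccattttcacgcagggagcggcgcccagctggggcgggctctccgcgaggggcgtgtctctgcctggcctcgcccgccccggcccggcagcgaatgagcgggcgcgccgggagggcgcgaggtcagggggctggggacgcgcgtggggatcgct

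The ALAS2 window held 1 GATA match, beginning at position -127 from the start, and only 1 CpG dinucleotide. ALAS1 held no GATA match and 22 CpG. CPOX held 2 GATA matches, at positions -207 and -125, with 27 CpG, and FECH held none, with 26 CpG. Over all 35114 windows of this length in the table, 22.3% held a GATA match, the median number of CpG was 11, and 14.7% had as few CpG as ALAS2. Of the 7 members with a window, ALAD and PPOX had 2 starts each, and in each of them 1 of the 2 windows held a GATA match. UROD held none. The erythroid CACCC box (CCACACCC on either strand, the kind of site KLF factors bind) was found in 1 window, that of PPOX that also held a GATA match, and in 2.97% of all windows. The E-box CANNTG, bound by helix-loop-helix factors, was in the ALAS1, ALAS2 and FECH windows and not in that of CPOX, against 61.8% of all windows. A match describes the letters alone, and the known erythroid enhancers of ALAS2 lie in its introns, outside this window.

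ALAS2 was the member with the largest difference. ALAS2 (ENSG00000158578.18, chromosome X, 55009055 to 55031064, minus strand) was at 35.3 and 71.97 FPKM in Control, against 1.82 and 1.87 FPKM in HAND1_OE. Both HAND1_OE libraries were far below both Control libraries and almost equal to each other. The means were 53.6 ± 25.9 and 1.85 ± 0.0350 FPKM (SD, n = 2), so that 3.44% of the Control level was left. The log2 fold change, a difference of log2(FPKM + 1) here and throughout, was -4.18 (standard error 0.335, limma adjusted p = 0.00730, 95% interval -5.01 to -3.34). Without Control replicate 2, the library with the higher ALAS2, it was -3.67 and still called. In such fits the lone library left in a group is assumed to vary like the other group. A gene's own spread then comes from the other group alone, and limma draws it towards the spread of other genes.

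**Figure D1:**
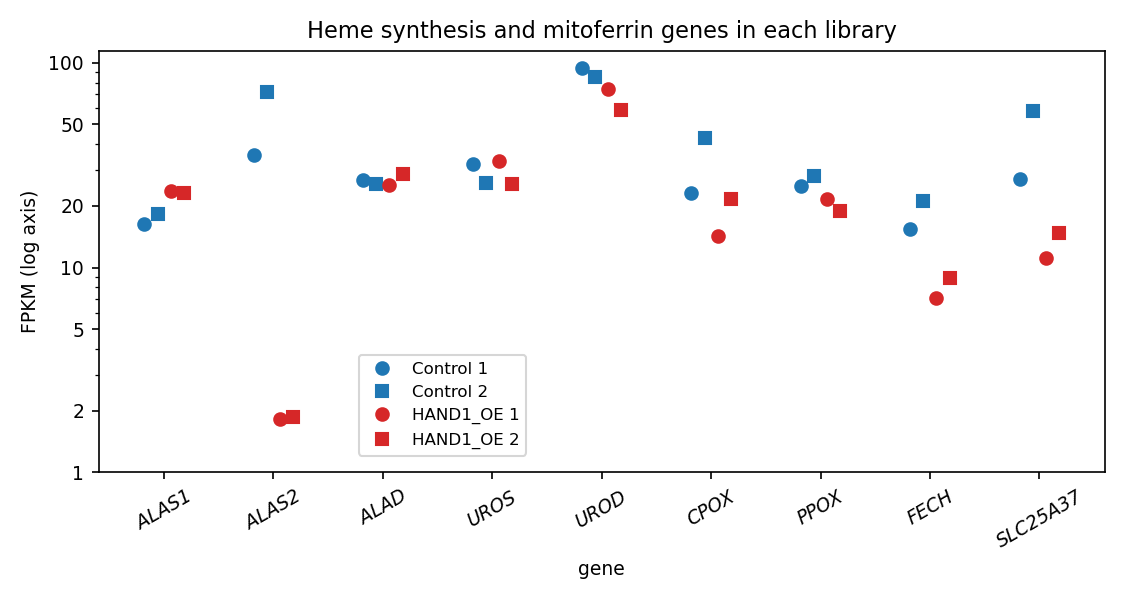
FPKM of the 9 genes on a log axis, with each point a library (circles, replicate 1; squares, replicate 2; blue, Control; red, HAND1_OE). ALAS2 is at 1.82 and 1.87 FPKM in HAND1_OE against 35.3 and 71.97 FPKM in Control, while the 4 libraries overlap for ALAD and UROS.

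ALAS1, the isozyme of general use, lay on the other side. ALAS1 (ENSG00000023330.14, chromosome 3, 52198086 to 52214327) was at 16.3 and 18.1 FPKM in Control, against 23.7 and 23.0 FPKM in HAND1_OE. The HAND1_OE libraries were higher and did not overlap with Control, but the difference did not pass over all genes (log2 fold change 0.42, standard error 0.147, limma adjusted p = 0.229). ALAS1 was the only member with HAND1_OE higher in both libraries.

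The balance of the isozymes was therefore compared within each library. ALAS2 made up 68.4% and 79.9% of the summed ALAS1 and ALAS2 FPKM in Control, and 7.15% and 7.51% in HAND1_OE. In Control ALAS2 was the more abundant isozyme, and in HAND1_OE it was the minor isozyme in both libraries. The sum of both was 51.6 and 90.1 FPKM in Control and 25.5 and 24.9 FPKM in HAND1_OE. The log2 ratio of ALAS2 to ALAS1, with a pseudocount of 1, was 1.07 and 1.93 in Control and -3.13 and -3.07 in HAND1_OE, a difference of -4.59. An exact two-sided permutation test over the 4 libraries gave p = 0.333, the smallest value that 2 against 2 allows.

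**Figure D2:**
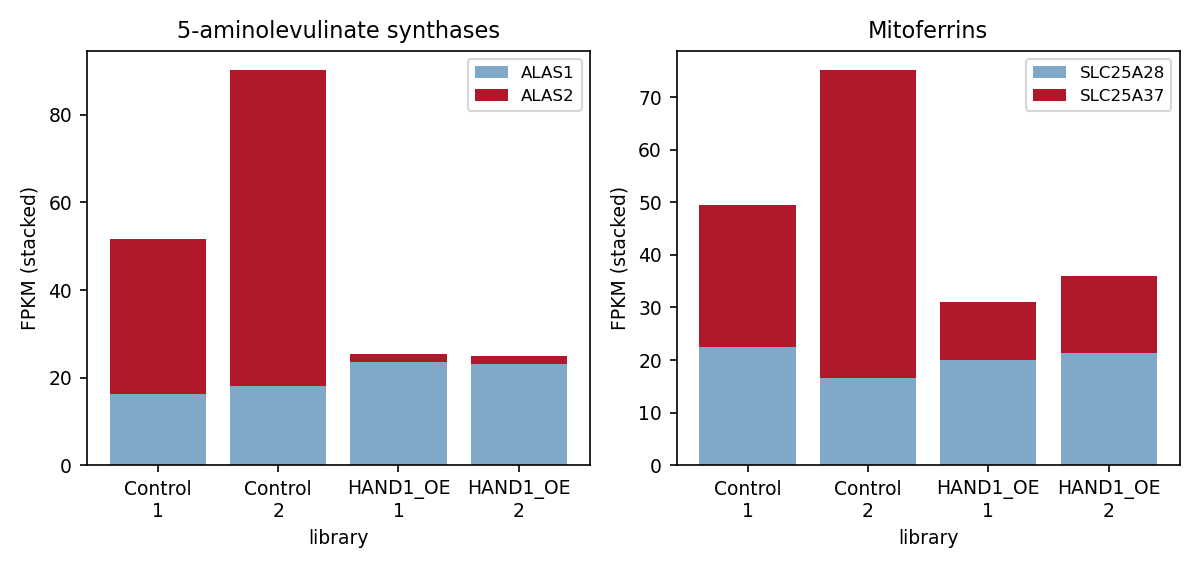
Stacked FPKM per library of ALAS1 and ALAS2 (left) and of the mitoferrins SLC25A28 and SLC25A37 (right); red is the erythroid member of each pair. The ALAS2 share is 68.4% and 79.9% in Control and 7.15% and 7.51% in HAND1_OE, whereas SLC25A37 keeps 35.6% and 40.8% of its pair in HAND1_OE.

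The RNA of the erythroid gene for mitochondrial iron import showed the next largest difference. SLC25A37 (ENSG00000147454.13, chromosome 8, 23528805 to 23575463) was at 27.0 and 58.4 FPKM in Control, against 11.1 and 14.7 FPKM in HAND1_OE, without overlap. Its HAND1_OE mean was 30.2% of the Control mean, a log2 fold change of -1.57 (standard error 0.370, 95% interval -2.49 to -0.64). It did not pass over all genes (limma adjusted p = 0.0931), and over 11 alternatives the limma adjusted p ran from 0.0188 to 0.347. The lowest, with a log2 fold change of -2.11, was without Control replicate 1, where the gene's own spread comes from HAND1_OE alone. Without Control replicate 2, the library with the higher level, the log2 fold change was -1.02. SLC25A28, mitoferrin 2 of general use, was at 22.4 and 16.7 FPKM in Control, against 20.1 and 21.3 FPKM in HAND1_OE, which overlap (log2 fold change 0.09, 95% interval -0.37 to 0.56, limma adjusted p = 0.871). SLC25A37 made up 54.6% and 77.8% of the mitoferrin FPKM in Control and 35.6% and 40.8% in HAND1_OE. The log2 ratio of SLC25A37 to SLC25A28 differed by -1.66 between the groups (exact two-sided permutation p = 0.333, again the smallest possible), with 0.26 and 1.75 in Control and -0.80 and -0.51 in HAND1_OE. Without Control replicate 2 that difference was -0.91.

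The RNA of the genes for iron insertion and for coproporphyrinogen oxidation was also lower in both HAND1_OE libraries. FECH (ENSG00000066926.10, chromosome 18, 57548283 to 57586772) was at 15.4 and 21.0 FPKM in Control, against 7.08 and 8.92 FPKM in HAND1_OE. The HAND1_OE mean was 44.0% of Control, a log2 fold change of -1.08 (standard error 0.214, 95% interval -1.62 to -0.55), just outside the threshold with a limma adjusted p = 0.0590. Over 11 alternatives its limma adjusted p ran from 0.0175 to 0.246. The lowest came with replicate numbers fitted as a block, a pairing that was not established. FECH also passed with 1 FPKM required in every library (limma adjusted p = 0.0493). Without HAND1_OE replicate 2, where the gene's own spread comes from Control alone, its log2 fold change was -1.23. CPOX (ENSG00000080819.6, chromosome 3, 98521132 to 98593723) was at 23.2 and 42.9 FPKM in Control, against 14.3 and 21.7 FPKM in HAND1_OE, with HAND1_OE replicate 2 close to Control replicate 1. Its log2 fold change of -0.81 (95% interval -1.65 to 0.03, limma adjusted p = 0.308) was -0.37 without Control replicate 2. CPOX overlaps CLDND1 and a further locus on its own strand, so the division of reads there is uncertain.

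UROD and PPOX held smaller differences. UROD (ENSG00000126088.13, chromosome 1, 45012147 to 45015575), uroporphyrinogen decarboxylase, was at 93.9 and 84.7 FPKM in Control, against 74.4 and 58.4 FPKM in HAND1_OE. PPOX (ENSG00000143224.17, chromosome 1, 161166410 to 161178013), protoporphyrinogen oxidase, was at 25.1 and 28.1 FPKM in Control, against 21.6 and 18.8 FPKM in HAND1_OE. Neither overlapped between the groups, and neither passed, with log2 fold changes of -0.43 for UROD (limma adjusted p = 0.295) and -0.38 for PPOX (limma adjusted p = 0.301). PPOX shares positions with B4GALT3 on the opposite strand, and no source used here says whether counting used strand.

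ALAD and UROS were at like levels in the 4 libraries. ALAD (ENSG00000148218.15, chromosome 9, 113386317 to 113401333), which joins 5-aminolevulinate molecules to porphobilinogen, was at 26.8 and 25.5 FPKM in Control, against 25.4 and 28.5 FPKM in HAND1_OE. UROS (ENSG00000188690.12, chromosome 10, 125784980 to 125823248), which closes the porphyrin ring, was at 32.1 and 25.7 FPKM in Control, against 33.2 and 25.4 FPKM in HAND1_OE. Both overlapped between the groups. Their log2 fold changes were 0.04 (95% interval -0.33 to 0.41) and 0.01 (95% interval -0.48 to 0.51), so these intervals did not reach a change of 1 log2 unit in either direction. That held for 5 members in all, the others being ALAS1, UROD and PPOX. Erythroid cells are known to use their own first exons for ALAD and UROS, and the table gives 1 value per gene, so a switch between such transcripts would not be seen.

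**Figure D3:**
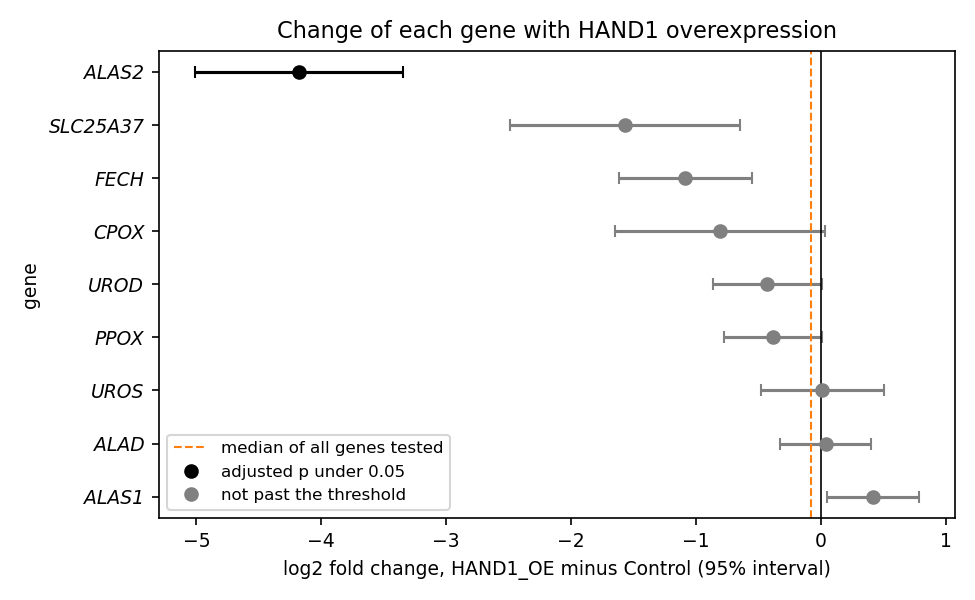
Log2 fold change of each gene, HAND1_OE minus Control, with its 95% interval from the limma standard error; black marks an adjusted p under 0.05, and the dashed line is the median of all genes tested, -0.08. ALAS2 lies at -4.18, apart from the other 8 genes, which run from -1.57 to 0.42.

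All 9 members were at 1 FPKM or more in the 4 libraries, so that none entered the test through its higher group alone. Of them 1 was called lower and 0 higher, against 2.11% of all genes tested called lower, 2.04% called higher and 4.16% called in either direction. In 6 members both HAND1_OE libraries lay below both Control libraries and in 1 above, 7 of 9 in all. Of all genes tested 30.1% lay below without overlap, 16.2% above and 46.3% in either direction. At an unadjusted p under 0.05 there were 4 of the 9 members (3 lower and ALAS1 higher), beside 17.4% of all genes tested. Over the 9 members the median log2 fold change was -0.43, beside -0.08 for the whole table tested.

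The order of the members by level differed between the groups. In Control, UROD was the most abundant with a mean of 89.3 FPKM, followed by ALAS2, SLC25A37 (42.7 FPKM), CPOX (33.1 FPKM), UROS, PPOX, ALAD, FECH (18.2 FPKM) and ALAS1 (17.2 FPKM). Only UROD from ALAS2, and ALAD from FECH, were neighbours whose libraries did not overlap. In HAND1_OE, UROD was again first with 66.4 FPKM, ALAS2 was last, and ALAS1 stood in place 4 of 9 with 23.4 FPKM. There UROS and ALAD, PPOX and CPOX, and CPOX and SLC25A37 were the neighbours with overlapping libraries.

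The Control libraries differed from each other most in the 4 members with the largest differences between the groups. The ratio of Control replicate 2 to Control replicate 1 was 2.16 for SLC25A37, 2.04 for ALAS2, 1.85 for CPOX and 1.37 for FECH. It was 1.12 for PPOX, 1.11 for ALAS1, 0.952 for ALAD, 0.902 for UROD and 0.801 for UROS. The middle 50% of all genes tested lay between 0.826 and 1.17, so the first 4 were outside and the next 4 inside this range, with UROS just below it. In HAND1_OE the ratio of replicate 2 to replicate 1 was 1.51 for CPOX, 1.33 for SLC25A37 and 1.26 for FECH, and 1.03 for ALAS2. These ratios describe single pairs of libraries, and the first set shares its libraries with the comparison of the groups.

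**Figure D4:**
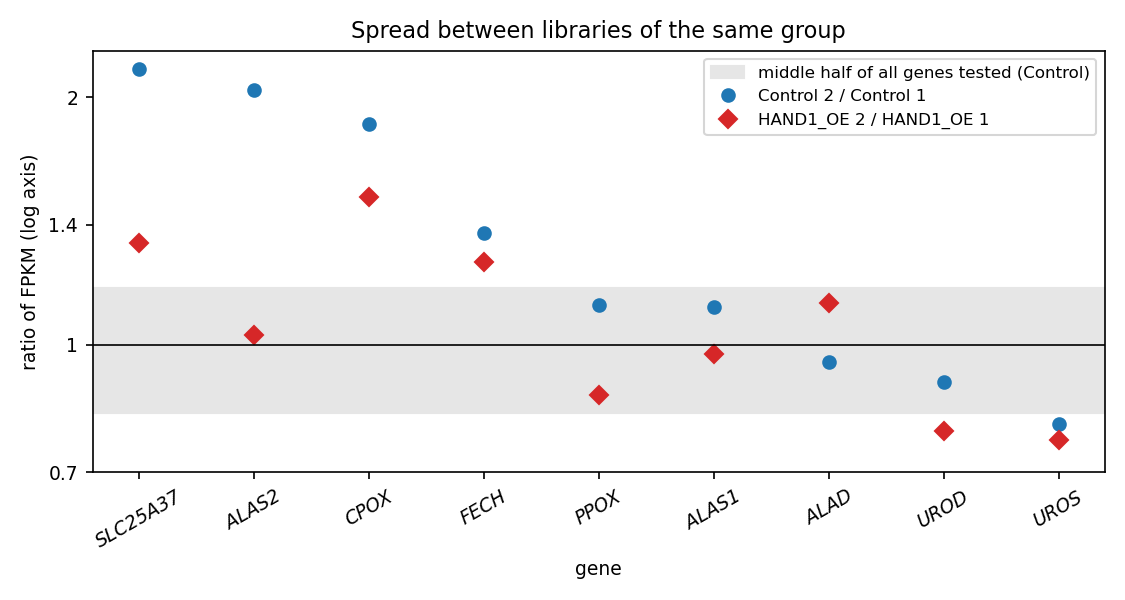
Ratio of FPKM between the libraries of a group on a log axis, Control (blue circles) and HAND1_OE (red diamonds), with the grey band holding the middle 50% of all genes tested in Control. SLC25A37, ALAS2, CPOX and FECH lie above the band in Control, at 1.37 to 2.16, and ALAS2 is at 1.03 in HAND1_OE.

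Erythroid markers were also lower in HAND1_OE. Of 20 erythroid markers 13 were tested, and 8 were called lower and 0 higher. They were led by GYPB (glycophorin B, log2 fold change -4.93), HBE1 (embryonic epsilon globin, -4.19) and HBG2 (fetal gamma globin, -4.15), members of families with near-identical copies, and the rows of both globins span neighbouring genes in the table, so the division of reads there is uncertain. The summed level of the 20 was 941 and 1289 FPKM in Control and 251 and 191 FPKM in HAND1_OE. SLC4A1 and AHSP were listed at 0 in both HAND1_OE libraries. They were also under 1 FPKM in Control (0 and 0.0564 FPKM for SLC4A1, 0.432 and 0.400 FPKM for AHSP) and were not tested. A listed 0 in a table without counts can be a failed estimate. GYPC, which many cells express, was at 86.5 and 69.4 FPKM in Control, against 180 and 130 FPKM in HAND1_OE, and without it the sum was 854 and 1220 FPKM in Control and 71.3 and 61.0 FPKM in HAND1_OE. The sum was higher in Control replicate 2 than in Control replicate 1, as were ALAS2, SLC25A37, CPOX and FECH. It was lower in HAND1_OE replicate 2 than in HAND1_OE replicate 1, unlike CPOX, SLC25A37 and FECH, which were higher there. ALAS2 was almost equal in the HAND1_OE libraries (1.82 and 1.87 FPKM) and did not fall with the sum either. In bulk RNA, fewer erythroid cells and less of a transcript per cell cannot be told apart, and the part of erythroid content in the members' differences was not tested.

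Markers of other blood lineages were lower too. Called lower were 6 of 7 tested megakaryocyte markers, 5 of 6 myeloid and 6 of 9 pan-hematopoietic markers, with none called higher. Of these calls 3 megakaryocyte, 1 myeloid and 2 pan-hematopoietic markers, and 1 of the erythroid calls, were under 1 FPKM in both HAND1_OE libraries and entered the test through Control alone. Summed over all 10 markers of each list, tested or not, megakaryocyte markers were at 157 and 199 FPKM in Control and 16.2 and 11.2 FPKM in HAND1_OE. Myeloid markers summed to 128 and 102 FPKM in Control and 13.9 and 7.64 FPKM in HAND1_OE. Pan-hematopoietic markers summed to 109 and 126 FPKM in Control and 20.7 and 26.7 FPKM in HAND1_OE. PPBP was listed at 0 in both HAND1_OE libraries and at 0.106 and 0 FPKM in Control, so it was not tested. ELANE and PRTN3 were listed at 0 in all 4 libraries. Genes of general mitochondrial content (citrate synthase, import and respiratory chain genes) gave 0 calls of 19 tested, with log2 fold changes from -0.36 to 0.28 and a median of -0.06.

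The genes whose values most resembled those of ALAS2 were then named, by the smallest distance between log2(FPKM + 1) values centred over the 4 libraries, among 9684 genes with a mean of at least 5 FPKM. These were, for ALAS2, HBE1 (distance 0.20), HBZ (0.37), RHAG (0.48) and HBG2 (0.53), globin and red cell membrane genes. HBE1 was at 175 and 295 FPKM in Control, against 11.8 and 11.1 FPKM in HAND1_OE. Like ALAS2 it was higher in Control replicate 2 and almost equal in the HAND1_OE libraries, a likeness that the choice by distance builds in. For SLC25A37 the nearest were EGR3 (0.24), NOSTRIN (0.29), ABCC4 (0.34), ZDHHC21 (0.39) and ELN (0.42). The centred values were not scaled, so the distance depends on the size of the group difference. A gene this near to ALAS2 could therefore not be as near to SLC25A37, whose difference was smaller. For FECH they were DACH1 (0.04), THBD (0.05), P3H2 (0.09), ZFP36 (0.10) and TNFSF9 (0.10), and for ALAD they were STAM2, WASHC4, DHX15, ARL6IP5 and CNIH1, at distances of 0.02 to 0.03. Distances of genes that hardly vary are small by construction, and 4 libraries give few ways to differ.

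The genes around the pathway were examined as 8 lists. Of 61 genes 57 were tested, and 2 were called lower and 0 higher, beside 2.11% and 2.04% of all genes tested, with a median log2 fold change of -0.09 and a range from -1.58 to 0.65. HAND1_OE lay below Control without overlap in 20 and above in 9 of the 57, beside 30.1% and 16.2% of all genes tested.

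The called genes were the transferrin receptors TFRC and TFR2, among 14 tested of 17 genes of cell iron uptake, storage and export (median -0.27). TFRC (ENSG00000072274.12, chromosome 3, 196027183 to 196082189), the transferrin receptor, was at 13.0 and 12.2 FPKM in Control, against 5.21 and 4.05 FPKM in HAND1_OE (log2 fold change -1.28, standard error 0.180, limma adjusted p = 0.0258). TFR2 (ENSG00000106327.12, chromosome 7, 100620416 to 100642779), a second transferrin receptor of liver and erythroid cells, was at 3.08 and 3.39 FPKM in Control, against 0.466 and 0.369 FPKM in HAND1_OE (log2 fold change -1.58, standard error 0.200, limma adjusted p = 0.0194). TFR2 reached 1 FPKM in the Control libraries alone and entered the test through them, so that its call had to favour a lower level, and it is not tested where 1 FPKM is required in every library. Neither call held without Control replicate 1 (limma adjusted p = 0.0937 for TFRC and 0.0553 for TFR2) or without Control replicate 2 (0.0840 and 0.0725), where the log2 fold changes were between -1.63 and -1.23.

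In the other lists the gene with the largest difference did not pass. SLC6A9, a glycine transporter, was at 3.76 and 4.91 FPKM in Control, against 1.73 and 1.19 FPKM in HAND1_OE (log2 fold change -1.12, limma adjusted p = 0.0614). ABCG2, an exporter of porphyrins, was at 3.91 and 2.46 FPKM in Control, against 0.868 and 0.936 FPKM in HAND1_OE (-1.12, limma adjusted p = 0.0754). BLVRB, a biliverdin reductase abundant in red cells, was at 66.4 and 64.0 FPKM in Control, against 37.7 and 27.6 FPKM in HAND1_OE (-0.99, limma adjusted p = 0.0535). These 3 genes were lower in both HAND1_OE libraries without overlap, and ABCG2 reached 1 FPKM in Control alone. Over 11 alternatives the limma adjusted p of BLVRB ran from 0.0272 to 0.231 and that of SLC6A9 from 0.0403 to 0.255. EIF2AK1, the heme-regulated kinase that restrains translation, had a log2 fold change of -0.60 (limma adjusted p = 0.283), and NRF1, a regulator of mitochondrial genes, -0.29 (0.511).

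**Figure D5:**
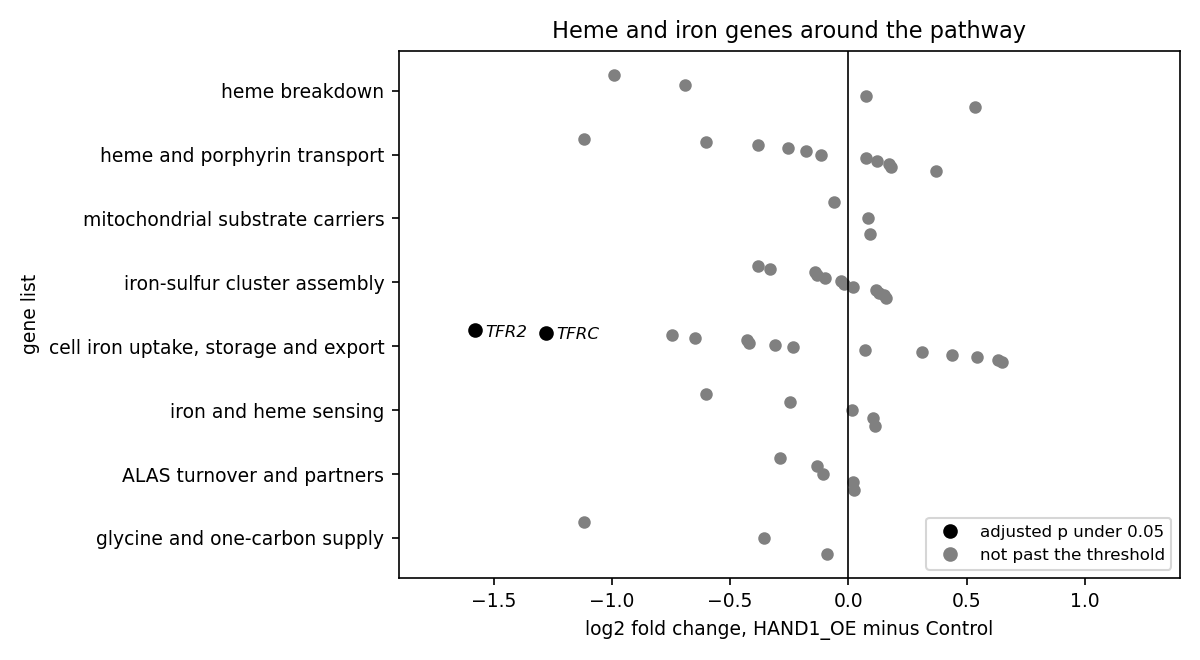
Log2 fold change, HAND1_OE minus Control, of the 57 tested genes in 8 lists around heme synthesis, with black points at an adjusted p under 0.05. TFRC at -1.28 and TFR2 at -1.58 are the called genes, and the 3 mitochondrial substrate carriers lie between -0.06 and 0.09.

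Iron-sulfur cluster assembly, which draws on the same mitochondrial iron, held 0 calls in 12 genes, with a median log2 fold change of -0.02. The mitochondrial substrate carriers, among them SLC25A38, which brings glycine into mitochondria, held 0 calls in 3 genes, with -0.06 to 0.09. Heme and porphyrin transport held 0 calls in 11 genes (median -0.12), heme breakdown 0 in 4 (median -0.31), iron and heme sensing 0 in 5 (median 0.01), ALAS turnover and partners 0 in 5 (median -0.11) and glycine and one-carbon supply 0 in 3 (median -0.36). A gene that did not pass is not thereby shown to be at the same level.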

How the data were processed

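RNA from H1-derived CD31+ cells was converted to libraries with an Illumina TruSeq kit. The authors deposited 1 table with a value per gene and library. Its header gives no unit. FPKM was assumed for the deposited values, since that unit labels the study's plot of these cells and the columns sum to different totals. The submitters' processing notes name BWA, Bowtie, RSEM and hg19 without a role or order, yet 97.6% of the genes found in GENCODE release 29 had the same GRCh38 coordinates, so positions (counted from 1) are given on GRCh38. UROS and CPOX are among those whose ends differ from that release, and their positions are the file's own. Values are as deposited, without counts, so the depth is unknown and no counting interval is given.

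Of 58365 rows, 45 Y copies of pseudoautosomal genes and 91 repeats of a gene ID were left out. Groups came from the titles. log2(FPKM + 1) of 14622 genes was fitted with limma 3.58.1 in R 4.3.3, letting the prior variance follow the mean level, and two-sided p-values were adjusted by Benjamini-Hochberg over all genes tested. The fit was run on simulated data with its own fitted spread and independent libraries. Such data cannot show how well the fit suits the libraries used here. The members, lists and tests were chosen with earlier results of these data known. Named genes are the 9 members, SLC25A28, HAND1, up to 4 called genes of each list or else the gene with the largest change, 3 erythroid markers and the 5 nearest genes of ALAS2, SLC25A37, FECH and ALAD. PECAM1, VWF, CLDN5, GYPC and the markers listed at 0 were named after their values were seen. Some genes that the rule names are not reported here. Upstream sequences came from RefSeq tables (GRCh38.p14) and were taken for 7 of the 9 members. UROS had no window there, and SLC25A37 was left out.

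As alternatives, the pseudocount was set to 0.1, the filter was dropped (all genes above 0) or raised to 1 FPKM in every library, and values were scaled by median ratios or by quantiles. The trend was removed, replicate numbers were fitted as a block, and libraries were left out in turn.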

Additional observations from a re-analysis of the deposited data

How the results depend on the processing

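Of 99 values of single members under 11 alternatives, 89 kept their direction and their side of the threshold. ALAS2 stayed called in 10 of the 11, and with all genes above 0 tested it had a limma adjusted p = 0.153 at the same fold change; there 0 genes were called higher and 0 lower, 0 members and 0 neighbours passed, and 3810 genes had an unadjusted p under 0.05. Fewer prior degrees of freedom (1.32 in place of 3.61) were estimated in that fit. With 1 FPKM in every library 2 members were called lower, and after quantile normalization 4 neighbours were.

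With the replicate block 597 genes were called higher and 712 lower, and 4 members (ALAS2, FECH, SLC25A37 and CPOX, limma adjusted p = 0.0099, 0.0175, 0.0273 and 0.0333) and 7 neighbours were called lower. Same-numbered libraries deviated together with a correlation of 0.383 across genes, but the labels give the number no meaning and there are 2 pairs, so pairing was not established. For the log2 ratios of the isozyme pairs (-4.59 and -1.66) a block leaves the difference of means as it is by construction.

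Leaving out each library gave 134 to 266 genes called higher and 137 to 309 lower, with 1 to 2 members and 0 to 3 neighbours lower. UROS then ranged from -0.17 to 0.20 and ALAD from -0.043 to 0.12, so single libraries decide their sign. The log2 ratio of ALAS2 to ALAS1 differed by -5.14 with a pseudocount of 0.1 and by -5.21 with none.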

Other observations

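Ferritin chains, which store iron outside the heme pathway, lay on opposite sides. FTH1, the heavy chain with ferroxidase activity, was at 1047 and 1012 FPKM in Control, against 705 and 611 FPKM in HAND1_OE, and FTL, the light chain, was at 1944 and 1647 FPKM in Control, against 2708 and 2173 FPKM in HAND1_OE. The groups did not overlap for either gene, and neither passed (log2 fold change -0.65, limma adjusted p = 0.133 for FTH1; 0.44, limma adjusted p = 0.403 for FTL). Over 11 alternatives the limma adjusted p of FTH1 ran from 0.0367 to 0.579.

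The heme oxygenases also lay on opposite sides. HMOX1, the inducible enzyme, was at 14.3 and 14.0 FPKM in Control, against 8.33 and 8.41 FPKM in HAND1_OE (log2 fold change -0.69, limma adjusted p = 0.0735), and HMOX2, the constitutive enzyme, was at 15.9 and 21.4 FPKM in Control, against 28.2 and 26.1 FPKM in HAND1_OE (0.53, limma adjusted p = 0.230). Over 11 alternatives the limma adjusted p of HMOX1 ran from 0.0367 to 0.296. These 4 genes were named after their values were seen.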
